A study of Mus musculus with 20 samples.

Results

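The transcripts described here encode the aminoacyl-tRNA synthetases, the enzymes that load each amino acid onto its tRNA. They were chosen by symbol, as 1 letter for the amino acid followed by "ars" or "ars2", together with Farsa, Farsb and Eprs, and 37 of the 23284 genes in the data met this rule. Of these, 20 encode cytosolic enzymes and 17 encode mitochondrial enzymes, whose symbols end in 2. All 37 passed the filter on low counts in every test below.

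Mammalian cells charge tRNA with separate enzymes in the cytosol and in mitochondria, all encoded in the nucleus. Gars and Kars are the exceptions, since 1 gene serves both compartments, and mitochondrial glutaminyl-tRNA is made by an indirect route. In the cytosol, Eprs, which charges both glutamate and proline, forms a large multi-synthetase complex with the enzymes for isoleucine, leucine, methionine, glutamine, arginine, lysine and aspartate and with the scaffold proteins Aimp1, Aimp2 and Eef1e1. Many cytosolic synthetase genes are known targets of Atf4, the transcription factor of the amino acid response.

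The study asked which RNAs are bound by the dioxygenases Tet1 and Tet2 in mouse embryonic stem cells (ESCs), and whether Tet2 needs its RNA-binding domain (RBD) for this. RNA immunoprecipitation and sequencing (RIP-Seq) used anti-Flag antibody on cytoplasmic extract, and total RNA of the same cells served as input. The 20 libraries came from 3 knock-in ESC lines grown on gelatin with serum and leukemia inhibitory factor (LIF): Tet1-KI (2 IP and 2 input libraries), Tet2-KI (4 and 4) and Tet2dRBD-KI (4 and 4), called Tet1, Tet2 and Tet2ΔRBD below. In all 3 lines a Flag, HA and Twin-Strep tag was joined to the C-terminus of the endogenous protein, Tet1, Tet2 or Tet2 without its RBD, and the tags left the other Tet gene untouched. The lines came from picked clones, the number of clones behind each is not given in the sources used here, and nothing says that replicates were separate cultures, so p-values measure only the spread between these samples. A control IP with IgG was not analysed here. In bulk RNA, fewer cells of a type and less RNA per cell cannot be told apart.

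Library totals lay between 21078995 and 37576638 expected counts, and the lowest count of any member in any input was 172, for Wars2. The ESC markers were abundant, with a sum over 8 marker genes of 13539 to 17340 TPM in the inputs, the RSEM measure of a transcript's share of all transcripts per length. By a number in the deposited names, which the labels do not explain, the libraries fall into 3 sets, called A, B and C here. Set A holds replicate 1 of Tet2 and Tet2ΔRBD, set B holds replicate 2, and set C holds replicates 3 and 4 of both and all Tet1 libraries. Libraries of different sets stood far apart, so values are given by replicate below.

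In total RNA, the cytosolic enzymes were more abundant than the mitochondrial ones in every line. The median cytosolic level was 97.6 TPM ± 1.67 (SD, n = 2) in the Tet1 line, 85.7 ± 31.0 (SD, n = 4) in the Tet2 line and 101 ± 23.0 (SD, n = 4) in the Tet2ΔRBD line. The mitochondrial medians were 16.5 ± 0.615, 15.8 ± 1.40 and 15.95 ± 2.44 TPM, and the ratio of the 2 medians was 5.90 ± 0.118, 5.33 ± 1.45 and 6.30 ± 0.726. All 17 mitochondrial members lay below all 20 cytosolic members in 3 of the 10 inputs, and in the other inputs between 1 and 10 mitochondrial members lay above the lowest cytosolic one.

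Kars, the lysine enzyme, had the highest level, 397 and 402 TPM in the Tet1 inputs, 250, 361, 204 and 204 TPM in the Tet2 inputs and 274, 242, 271 and 283 TPM in the Tet2ΔRBD inputs. Gars, the glycine enzyme, came next with means of 322, 245 and 264 TPM in the Tet1, Tet2 and Tet2ΔRBD lines, and Nars, the asparagine enzyme, came next by the mean of the 10 inputs, with 200, 143 and 161 TPM. In the Tet2 line Qars, the glutamine enzyme, had a higher mean than Nars, at 149.6 TPM. The 2 genes that serve both compartments thus led the list, and their order relative to each other was within their spread in the Tet2 and Tet2ΔRBD inputs. At the lower end of the cytosolic group stood Lars and Eprs, with means over the 10 inputs of 49.5 and 49.9 TPM. The most abundant mitochondrial transcripts were Tars2, Iars2 and Yars2, at 41.6, 38.4 and 28.8 TPM, and the least abundant were Nars2 and Wars2, at 6.27 and 2.86 TPM. Wars2, the tryptophan enzyme of mitochondria, varied little in the Tet2 line, with 2.82, 2.79, 2.67 and 2.84 TPM.

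**Figure D1:**
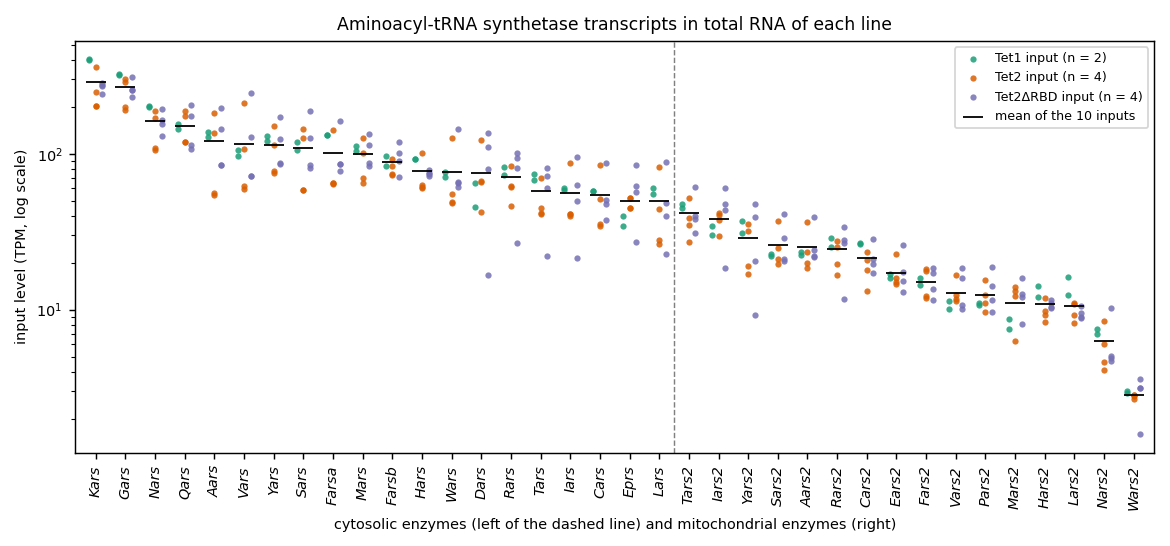
Input level of 36 of the 37 transcripts in TPM on a log scale, with 1 point per input library coloured by line and a black bar for the mean of the 10 inputs. Cytosolic enzymes (left of the dashed line) run from a mean of 289 TPM for Kars down to 49.5 TPM for Lars, and mitochondrial enzymes from 41.6 TPM for Tars2 down to 2.86 TPM for Wars2.

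The order of the levels held amino acid by amino acid for most of the 14 amino acids with 1 enzyme in each compartment. Nars exceeded Nars2 by 18.8- to 34.8-fold and Wars exceeded Wars2 by 16.9- to 89.4-fold across the 10 inputs. Gaps were small between the isoleucine enzymes, with a ratio of Iars to Iars2 of 1.01 to 2.08, and between the threonine enzymes, with a ratio of Tars to Tars2 of 0.362 to 2.61. The low Tars value came from replicate 2 of the Tet2ΔRBD line, in which Tars was measured at 22.1 TPM against 81.1, 60.0 and 71.99 TPM in the other inputs of the line, and Dars was measured at 16.6 TPM against 136, 80.1 and 111 TPM in the other inputs of the line.

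The first question was whether synthetase transcripts were enriched in the Tet IPs. Ratios are given on the log2 scale from TPM + 1, for each IP against the input of the same number. The IP came from cytoplasmic extract and the input from total RNA, so binding and location in the cell cannot be told apart in a ratio. In the Tet2 line, 28 of the 37 members (75.7%) had more TPM in IP than in input in all 4 replicates, against 46.5% of the 13710 genes tested and 45.3% of the tested genes with a mean input of at least 10 TPM. In the Tet1 line the rule was met by 31 members (83.8%, against 50.9% of tested genes) in both replicates, and in the Tet2ΔRBD line by 22 members (59.5%, against 31.8%) in all 4. In all 3 lines together it was met by 18 members, 11 cytosolic and 7 mitochondrial, against 22.4% of tested genes. The 5 fibroblast markers also summed to more in the IPs, 125 to 149 TPM against 61.2 to 106 TPM in the inputs, and the part of this in the ratios was not tested. Of the 5, Vim alone was called higher (fitted ratios of 1.07, 0.85 and 0.78 in Tet1, Tet2 and Tet2ΔRBD), while Thy1 had values below 0 in all 3 lines (-0.30, -0.36 and -0.20). The whole distribution of ratios lay above 0, with a median over 11784 expressed genes of 0.01 to 0.38 in the 10 pairs, and counted against that median, 30, 20 and 14 members were higher in every Tet1, Tet2 and Tet2ΔRBD replicate. The corresponding shares of tested genes were 41.9%, 25.6% and 18.1%. Of 4 nuclear-retained RNAs, 2, 1 and 1 had a fitted ratio above 0 in Tet1, Tet2 and Tet2ΔRBD, with medians of -0.18, -0.32 and -0.52. The part of location in the cell was not tested.

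Against that median of each pair, 13 members were higher in every replicate of all 3 lines, 7 cytosolic (Aars, Cars, Eprs, Gars, Iars, Lars and Mars) and 6 mitochondrial, among them Hars2, Iars2 and Yars2, against 11.8% of tested genes. Requiring an IP at least 1.5 times the input in every replicate left 6 members in the Tet1 line, 6 in the Tet2 line and 0 in the Tet2ΔRBD line, against 9.1%, 5.91% and 1.29% of tested genes.

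**Figure D2:**
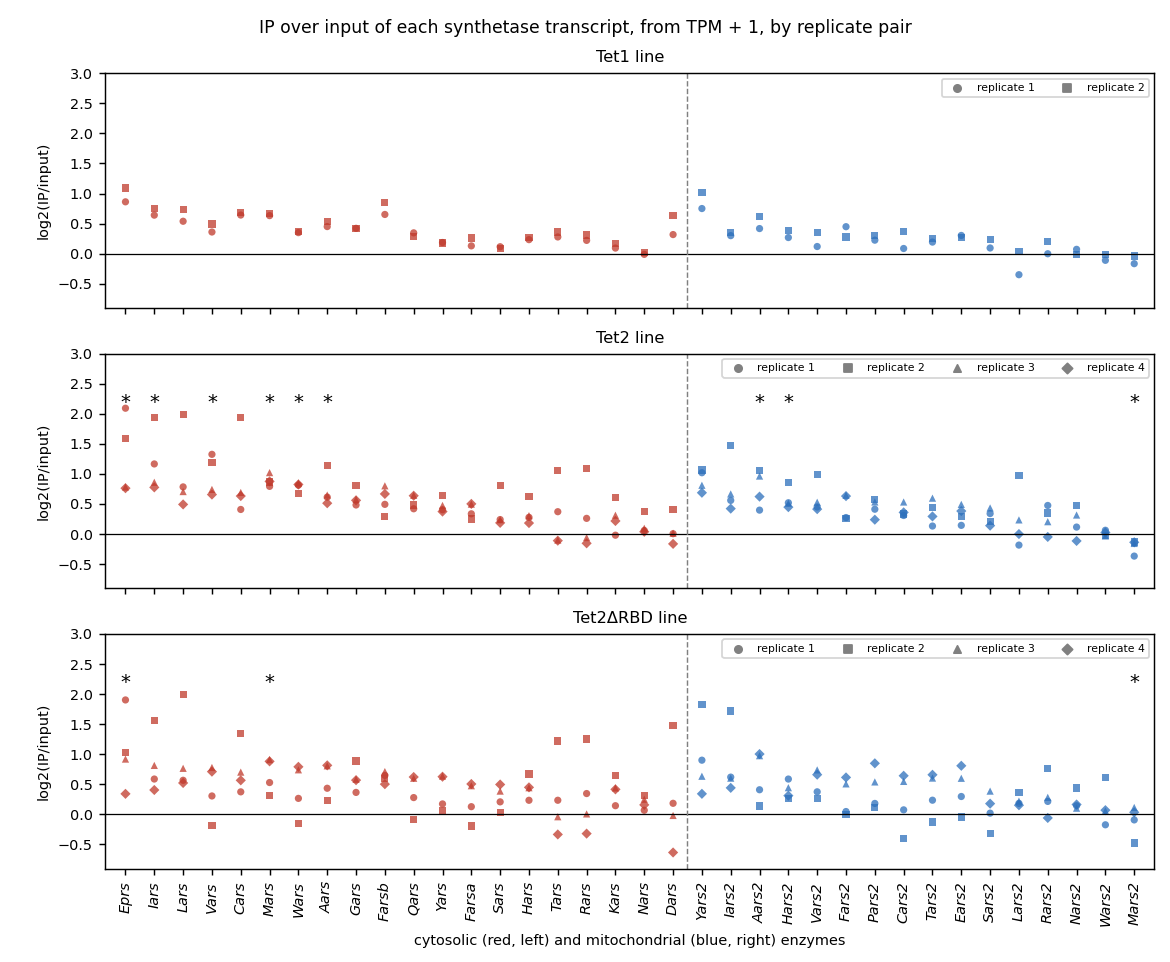
log2(IP/input) of 36 of the 37 transcripts from TPM + 1 in the 3 lines, with 1 marker per replicate pair; asterisks mark members past an adjusted p of 0.05 in edgeR (either direction). Eprs lies above 0 in all 10 pairs, Mars2 lies below 0 in all 4 Tet2 pairs, and replicate 2 (squares) is the most spread of the Tet2ΔRBD pairs.

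The transcript with the highest ratio in each line was that of Eprs (chr1:187186974-187252234 in mm9, plus strand). It measured 39.8 and 34.2 TPM in the Tet1 inputs and 73.1 and 74.1 TPM in the IPs. In the Tet2 line it went from 52.1, 51.7, 45.2 and 44.7 TPM in the inputs to 225, 157, 78.4 and 76.5 TPM in the IPs, and in the Tet2ΔRBD line from 62.2, 27.1, 57.1 and 84.6 TPM to 235, 56.2, 109 and 107 TPM. Every IP was above its own input, by the most in replicate 1 of the Tet2 and Tet2ΔRBD lines. By edgeR's quasi-likelihood test over all genes, the fitted log2 ratio, which is relative to the bulk of all genes, was 1.00 ± 0.23 (SE) in the Tet2 line (adjusted p = 0.00857), 0.79 ± 0.23 in the Tet2ΔRBD line (adjusted p = 0.0381) and 0.85 ± 0.33 in the Tet1 line, which did not pass (adjusted p = 0.146).

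In the Tet2 IP, 8 members were called higher than input and 1 lower by this test, against 14.6% and 18.5% of all 13710 tested genes (33.1% in either direction). That is 21.6% and 2.70% of the 37 members. Of the tested genes with a mean input of at least 10 TPM, 11.4% were called higher and 28.5% lower. The 8 were Eprs, Iars (0.88 ± 0.22), Vars (0.67 ± 0.14), Mars (0.58 ± 0.12), Wars, Aars2, Aars and Hars2, 6 cytosolic and 2 mitochondrial. Iars, the isoleucine enzyme, rose from 86.7, 41.2, 40.0 and 40.9 TPM in the inputs to 196, 161, 73.4 and 70.8 TPM in the IPs. Mars, the methionine enzyme, had log2 ratios of 0.79, 0.87, 1.02 and 0.88 in the 4 Tet2 pairs. Lars, the leucine enzyme, had the third largest fitted ratio (0.69 ± 0.28) but did not pass (adjusted p = 0.0784), its pairs running from 0.49 to 1.99.

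The count of 8 fell to 4 without Tet2 replicate 3 and to 5 without Tet2 replicate 4. It rose to 15 without Tet2ΔRBD replicate 2, which shares the estimate of spread, an alternative added after seeing the data. Of the 13710 tested genes, these 3 fits called 3207, 3606 and 5473 in either direction, against 4541 with all libraries. Without Tet2 replicate 1, no member was called lower. Limma on log2(TPM + 1) called 24 members higher and 0 lower, beside 4801 and 1113 of the 13710 tested genes. It does not remove the general shift of 0.22 in the ratios of all genes.

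Mars2, the methionine enzyme of mitochondria, ran the other way. This gene has a single exon (chr1:55294021-55296902 in mm9, plus strand). Its inputs in the Tet2 line held 6.31, 14.0, 12.3 and 13.2 TPM and its IPs 4.67, 12.7, 10.9 and 11.9 TPM, each IP below its own input. The fitted log2 ratio was -0.54 ± 0.12 in the Tet2 line (edgeR, adjusted p = 0.00633) and -0.39 ± 0.12 in the Tet2ΔRBD line (adjusted p = 0.0392), where 2 of the 4 pairs lay above 0 before scaling to all genes. The Tet2ΔRBD call was lost under all 11 alternatives tried, with adjusted p-values of 0.0536 to 0.756. In the Tet1 line both pairs were below 0, at -0.17 and -0.04, and the fitted ratio of -0.26 ± 0.17 did not pass (adjusted p = 0.384). The other low members in the Tet2 line, Wars2 (-0.31 ± 0.19) and Dars (-0.25 ± 0.27), did not pass, and under limma on log2(TPM + 1) both had values near 0, at 0.01 and 0.07.

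In the Tet2ΔRBD IP, 2 members were called higher, Eprs and Mars (0.39 ± 0.12, adjusted p = 0.0389 in edgeR), and Mars2 was called lower, against 7.4% and 12.1% of all tested genes. Yars2 (0.67 ± 0.23) and Lars (0.69 ± 0.28) had ratios of similar size to Eprs and did not pass in edgeR (adjusted p = 0.0587 and 0.108). Sars2 (-0.21 ± 0.11) and Nars (-0.08 ± 0.10) were the next lowest after Mars2 and did not pass either. The calls of Eprs and of Mars were each lost under 6 of 11 alternatives and that of Mars2 under all 11. No member was called in either direction without replicate 3 of this line, and 1 was called higher without replicate 1 or replicate 2. Limma on log2(TPM + 1) called 21 higher and 0 lower, beside 3224 and 629 of the 13710 tested genes, with a general shift of 0.20.

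In the Tet1 IP, with 2 pairs, edgeR called 0 members in either direction, against 2.71% of tested genes higher and 3.18% lower (5.89% in either direction; 0.967% and 5.55% of genes of at least 10 TPM), and 4 members had an unadjusted p under 0.05. DESeq2 and limma on log2(TPM + 1) called 2 members higher each, beside 841 and 492 of the 13710 tested genes. The highest were Eprs, Yars2 (0.75 ± 0.31), the tyrosine enzyme of mitochondria, and Farsb (0.61 ± 0.18), a subunit of the cytosolic phenylalanine enzyme, and the lowest were Lars2 (-0.32 ± 0.23), Mars2 and Wars2 (-0.23 ± 0.27), none of which passed. Yars2 went from 36.99 and 30.88 TPM in the inputs to 62.9 and 63.5 TPM in the IPs. The 2 Tet1 pairs lay close to each other. A fit on the Tet1 libraries alone, which takes the spread from those pairs only, called 20 members higher and 1 lower. It also called 7013 of the 13710 tested genes in either direction.

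The multi-synthetase complex was of interest because its enzymes are held together in 1 particle. Of its 8 synthetases, 3 (Eprs, Iars and Mars) were higher in the Tet2 IP (37.5%), against 14.6% of tested genes. Of the 12 cytosolic members outside the complex, 3 (Vars, Wars and Aars) were higher as well (25%). The median fitted ratio was 0.41 inside the complex, 0.21 in the cytosolic members outside it and 0.00 over all tested genes. In the Tet2ΔRBD IP 2 of the 8 (Eprs and Mars) and 0 of the 12 were higher, against 7.4% of tested genes. The members of the complex differed among themselves, since Kars (-0.04 ± 0.14), Rars (-0.03 ± 0.25) and Dars in the Tet2 line were near or below 0. Of the scaffold transcripts, Eef1e1 fell below input in every line, with fitted log2 ratios of -1.14 ± 0.16 (Tet1, adjusted p = 0.0187), -1.71 ± 0.12 (Tet2, adjusted p = 7.43e-05) and -1.35 ± 0.12 (Tet2ΔRBD, adjusted p = 0.000258) in edgeR, while Aimp1 (0.36 ± 0.26 in the Tet2 line) and Aimp2 (-0.20 ± 0.13) did not pass.

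Related lists were counted in the same fit, in which 14.6% of all tested genes were higher and 18.5% lower in the Tet2 IP. The accessory genes of tRNA charging, such as editing factors, tRNA exporters and scaffolds, numbered 19. Of these, 3 were higher (15.8%) and 4 lower (21.1%) in the Tet2 IP, with a median of -0.11. The 13 mitochondrial translation factors had 4 higher (30.8%) and 2 lower (15.4%), with a median of 0.31. They were led by Mtif2 (1.51 ± 0.30), the initiation factor, and Lrpprc (1.40 ± 0.25), which stabilises mitochondrial mRNA. Of 26 genes of amino acid response, synthesis and uptake, 3 were higher (11.5%) and 6 lower (23.1%), with a median of -0.03. Atf4 itself fell below input in all 3 lines, by 0.70 ± 0.13, 0.88 ± 0.09 and 0.60 ± 0.09 on the log2 scale in Tet1, Tet2 and Tet2ΔRBD (edgeR, adjusted p = 0.0222, 0.000173 and 0.00248), and Eif2ak4, the kinase that senses uncharged tRNA, was higher in the Tet2 IP (1.20 ± 0.28, adjusted p = 0.00918).

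By medians from TPM + 1, cytosolic members lay above mitochondrial members in the IPs by a small margin. The median log2(IP/input) of the cytosolic group was 0.35 and 0.39 in the Tet1 pairs, 0.41, 0.81, 0.61 and 0.51 in the Tet2 pairs and 0.29, 0.62, 0.62 and 0.50 in the Tet2ΔRBD pairs. The mitochondrial medians were 0.19 and 0.28, then 0.34, 0.48, 0.51 and 0.36, then 0.22, 0.26, 0.54 and 0.34. The cytosolic median was thus the higher in all 10 pairs, by 0.14 ± 0.03 (SD, n = 2) in the Tet1 line, 0.16 ± 0.11 (SD, n = 4) in the Tet2 line and 0.17 ± 0.13 (SD, n = 4) in the Tet2ΔRBD line. Both groups were above the median of expressed genes in every pair but 1: in Tet2ΔRBD replicate 1 the mitochondrial median of 0.22 was below the 0.26 of expressed genes. In the edgeR fit the cytosolic medians were 0.25, 0.25 and 0.14 in Tet1, Tet2 and Tet2ΔRBD, and the mitochondrial ones 0.10, 0.08 and 0.07. Over the 15 mitochondrial members of at least 10 TPM they were 0.11, 0.13 and 0.16. With this filter the mitochondrial median was thus the higher in the Tet2ΔRBD line.

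**Figure D3:**
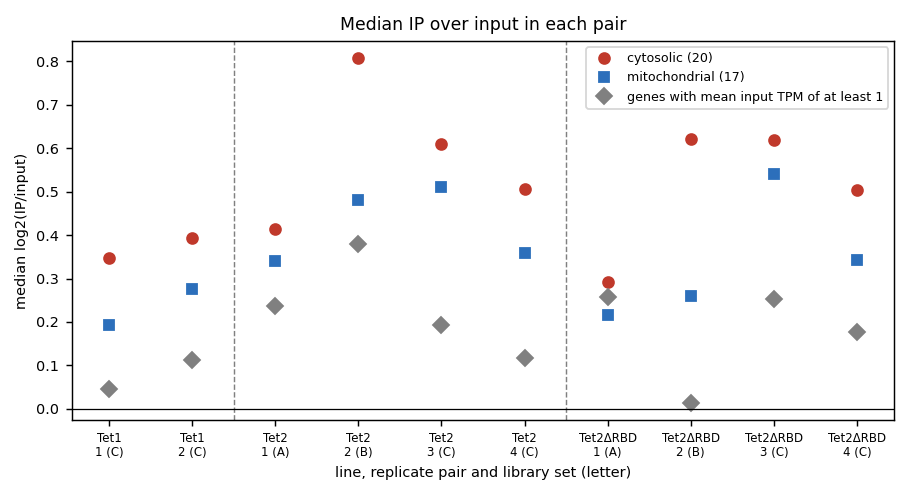
Median log2(IP/input) in each of the 10 replicate pairs for the 20 cytosolic members, the 17 mitochondrial members and the 11784 genes with a mean input of at least 1 TPM; letters give the library set. The cytosolic median is the highest point in every pair, and the gap to the mitochondrial median is widest in the 2 pairs of set B, at 0.33 (Tet2) and 0.36 (Tet2ΔRBD).

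The gap was not shared by all amino acids. With the 14 amino acids that have 1 enzyme per compartment, the cytosolic enzyme had the higher ratio for 6 to 10 of them, depending on the pair. Mars exceeded Mars2 and Lars exceeded Lars2 in all 10 pairs, Cars exceeded Cars2 and Wars exceeded Wars2 in 9, while Hars exceeded Hars2 and Yars exceeded Yars2 in only 2 of 10. Cytosolic and mitochondrial transcripts were of similar length and base composition, with median effective lengths of 2621 and 2814 bases and median GC contents of 50.4% and 49.1%.

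The next question was whether the ratios depended on the RBD of Tet2. The difference between the Tet2 and Tet2ΔRBD ratios passed the test for 0 of the 37 members in edgeR, against 3 (0.0219%) of the 13710 tested genes and 0.0453% of those of at least 10 TPM, and 1 member had an unadjusted p under 0.05. DESeq2 and limma on log2(TPM + 1) also called 0 members. The largest difference was that of Vars, the valine enzyme, at 0.54 ± 0.20 (edgeR, adjusted p = 1), and it came from replicates 1 and 2. Vars had log2 ratios of 1.33, 1.19, 0.74 and 0.66 in the Tet2 pairs and of 0.31, -0.19, 0.78 and 0.71 in the Tet2ΔRBD pairs, so that the lines differed in sets A and B and overlapped in set C. Over all members the median difference was 0.12, 0.37, -0.01 and -0.03 for replicates 1 to 4, beside -0.06, 0.32, -0.08 and -0.09 over expressed genes, and 4 members were higher in Tet2 in all 4, against 6.19% of tested genes. The standard errors of these differences, 0.13 to 0.42 on the log2 scale, limit what could be seen. Vars, at 0.54 ± 0.20, did not pass, so differences well above the standard error could also be missed.

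Total RNA of the 3 lines was then compared, to see whether the lines expressed the synthetases alike before any IP. Between Tet2ΔRBD and Tet2 inputs, 1 member was called, Farsa, the other subunit of the phenylalanine enzyme, against 1.35% of the 13317 tested genes called higher and 1.79% lower (3.14% together). Of the genes of at least 10 TPM, 1.53% were higher and 1.81% lower. Farsa measured 64.5, 141, 64.8 and 64.4 TPM in the Tet2 inputs and 77.0, 163, 85.8 and 85.4 TPM in the Tet2ΔRBD inputs, higher in Tet2ΔRBD in each replicate, with a fitted difference of 0.31 ± 0.06 (edgeR, adjusted p = 0.0339). The call was lost under 8 of 14 alternatives: without replicate 3 or replicate 4 of either line, without Tet2 replicate 1, without the filter on low counts, without the library set, and with the replicate number as a block. Over all members the count rose to 2 and 3 without Tet2 replicate 1 or 2, and to 4 and 5 without Tet2ΔRBD replicate 1 or 2. Markers differed between these inputs too. Of 4 primitive endoderm markers, Gata6 was called higher in Tet2ΔRBD (1.66 ± 0.27), and Gata4 (1.59), Sox17 (1.68) and Dab2 (1.31) did not pass. The 4 summed to 51.0 to 139 TPM there against 8.56 to 109 TPM in the Tet2 inputs. Of 8 ESC markers, Nanog was called lower (-0.43 ± 0.08). The part of these in the result was not tested.

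Between Tet1 and Tet2 inputs, 17 members were called higher in the Tet1 line and 1 lower, against 17.5% and 14.0% of tested genes (22.9% and 15.2% of those of at least 10 TPM). Of the cytosolic members 13 of 20 were higher, with a median fitted log2 difference of 0.52, and of the mitochondrial members 4 of 17 were higher and 1 was lower, with a median of 0.12, beside -0.01 over all tested genes. The smallest adjusted p-values in edgeR were those of Farsa (0.94 ± 0.08, adjusted p = 0.000206), Aars (1.09 ± 0.13, 0.000575), Vars (0.68 ± 0.08, 0.000658), Yars (0.67 ± 0.09, 0.00116) and Mars (0.58 ± 0.09, 0.00165). Mars2 was lower in the Tet1 line (-0.63 ± 0.15, edgeR adjusted p = 0.0118). Outside the multi-synthetase complex 10 of the 12 cytosolic members were higher, and inside it 3 of 8 (Kars, Mars and Qars), while Eprs (-0.59 ± 0.30) and Dars (-0.60 ± 0.36) had values below 0 and did not pass.

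**Figure D4:**
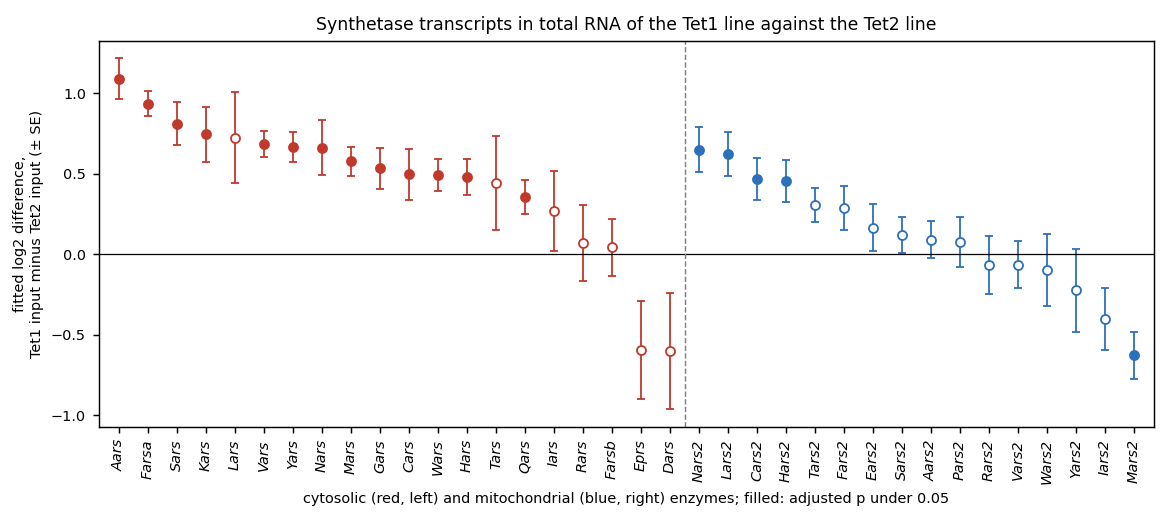
Fitted log2 difference between Tet1 and Tet2 inputs for 36 of the 37 members, with its SE; filled points have an adjusted p under 0.05. The cytosolic members (left) run from 1.09 for Aars to -0.60 for Dars, and the mitochondrial members (right) from 0.65 for Nars2 to -0.63 for Mars2.

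The values behind this comparison show which libraries it rests on. Aars measured 128 and 138 TPM in the Tet1 inputs, all of set C, and 136, 181, 54.3 and 56.0 TPM in the Tet2 inputs, of which the last pair belongs to set C. The Tet1 values thus lay far above the Tet2 values of their own set, close to that of set A and below that of set B. For Farsa the Tet1 inputs held 131 and 132 TPM, above the Tet2 inputs of sets A and C but below that of set B. Summed over the 20 cytosolic members, the Tet1 inputs held 2446 and 2464 TPM and the Tet2 inputs 2348, 2600, 1508 and 1506 TPM, and the Tet2ΔRBD inputs of set C lay between, at 1956 and 2090 TPM. Both Tet1 inputs were above both Tet2 inputs of set C for 18 of 20 cytosolic and 10 of 17 mitochondrial members, against 44.6% of tested genes, and above all 4 Tet2 inputs for 3 cytosolic (Gars, Kars and Nars) and 4 mitochondrial members, against 16.7% of tested genes.

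Without the library set in the model 0 members were called in either direction, beside 54 of the 13317 tested genes. With set C alone 21 members were called higher and 2 lower, beside 6508 of the 13317 tested genes in either direction. Leaving out a single library also moved the count of 17, to 7 without either Tet1 replicate, 9 without Tet2 replicate 3 and 10 without Tet2 replicate 4. All Tet1 libraries lie in set C, which also holds replicates 3 and 4 of the other lines. The line, its clone and its culture cannot be told apart here. Other values moved with this comparison. The primitive endoderm markers Gata6, Gata4 and Dab2, 3 of the 4 listed, were higher in the Tet1 inputs, the 4 summing to 38.9 to 41.0 TPM there against 8.56 to 8.63 TPM in the Tet2 inputs of set C and up to 109 TPM in the other Tet2 inputs, while the ESC markers summed to 16949 to 17001 TPM against 16697 to 17258 TPM in those set C inputs. Single ESC markers differed, with Tdgf1 higher (0.44) and Sox2 lower (-0.42). The fibroblast markers Col1a1 (-1.75), Col1a2 (-1.15) and Thy1 (-1.48), 3 of the 5 listed, were lower, the 5 summing to 61.2 to 67.8 TPM against 90.4 to 93.0 TPM in set C, and Eomes (1.44) and Pax6 (3.89, at means of 0.84 and 0.06 TPM in the Tet1 and Tet2 inputs) were higher. Across the 20 cytosolic members, the difference rose with the GC content of the transcript (Pearson's r = 0.65), across the 17 mitochondrial members it did so less (r = 0.11), and across 8213 genes r was 0.09. The part of these in the result was not tested.

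The related lists were counted in the same comparison, in which 17.5% of all tested genes were higher and 14.0% lower. Among genes of at least 10 TPM these shares were 22.9% and 15.2%. Of the 26 genes of amino acid response, synthesis and uptake, 7 were higher in the Tet1 inputs (26.9%). In this list 1 gene, Cebpb, was lower (3.85%), and the median was 0.28. The largest were Mthfd2 (0.88 ± 0.17), of mitochondrial folate metabolism, and Phgdh (0.76 ± 0.12), the first enzyme of serine synthesis, while Atf4 (0.18 ± 0.12) did not pass. Of the 19 accessory genes 6 were higher (31.6%) and 0 lower, with a median of 0.18. They were led by Dtd1 (1.22 ± 0.15), which removes D-amino acids from tRNA, and Xpo5 (0.71 ± 0.10), an exporter of small RNA. The 13 mitochondrial translation factors had 3 higher (23.1%) and 1 lower (7.69%), with a median of 0.01. The elongation factors Gfm1 (0.84 ± 0.20) and Gfm2 (0.65 ± 0.09) led this list.

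Because many cytosolic synthetases moved together in this comparison, their promoters were searched for the core of the response element that Atf4 binds, TGATGCAA or, read on the other strand, TTGCATCA. RefSeq promoters of 300 bases, from 250 before to 50 after the annotated start (GRCm38.p6), were given for 28 of the 37 members. The motif was present in 4 of 13 cytosolic and 0 of 15 mitochondrial promoters, and in 1.03% of the promoters of 27025 genes. For 3 of these genes the stretch that holds it is shown 5′ to 3′ on the strand of the gene, with the motif in capitals, to let the sites be compared. Each was found once on its chromosome in the mm9 genome, at chr13:49777495-49777524 for Iars, chr15:11329410-11329439 for Tars (minus strand) and chr4:128867139-128867168 for Yars.
Iars: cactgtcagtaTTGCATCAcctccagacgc
Tars: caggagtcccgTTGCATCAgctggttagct
Yars: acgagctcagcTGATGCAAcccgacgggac

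The motif read TTGCATCA in Iars and Tars and TGATGCAA in Yars. Of the 4 genes with the motif, 2 were higher in the Tet1 inputs by the test above, Yars among them, beside 13 of all 20 cytosolic members. Iars (0.27 ± 0.25) and Tars (0.44 ± 0.29) did not pass. Among the cytosolic genes searched and found without the motif, Farsa, Gars, Kars, Mars, Qars and Sars were also called higher. Dars, Eprs and Farsb, also without it, were not called. The part of the motif in these differences was not tested. A match is a description of the letters in this window and does not show that the site was bound.

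Base composition also ran with single libraries in the other comparisons. Across the 37 members, whose transcripts span 42.0% GC (Dars) to 60.9% GC (Vars), the level in an input relative to the mean of the 10 inputs correlated with GC at r = 0.73 and 0.74 in the 2 inputs of set B, at -0.68 and -0.72 in the Tet2ΔRBD inputs of set C and at -0.39 and -0.33 in the Tet2 inputs of set C. The log2(IP/input) of the members correlated with GC at r = -0.58 in Tet2ΔRBD replicate 2 and at 0.64 in replicate 4, and the 8213 genes gave the same signs, at -0.25 and 0.52. The 2 Tet1 pairs gave -0.01 and -0.07. The 12 members of lowest GC had median ratios of 0.46, 1.13, 0.43 and 0.24 in the Tet2ΔRBD pairs, and the 12 of highest GC had 0.30, 0.01, 0.72 and 0.69. With the logarithm of transcript length, the fitted IP ratios of the members correlated at r = 0.08, 0.38 and 0.30 in Tet1, Tet2 and Tet2ΔRBD. With GC these fitted ratios gave -0.03, 0.18 and -0.10. These correlations are across genes that share libraries and are given as a description, and the part of length was not tested.

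Dars and Vars lie at the ends of this GC range, and the part of GC content in their values was not tested. Dars, the aspartate enzyme, had log2 ratios of 0.18, 1.47, -0.02 and -0.63 in the Tet2ΔRBD pairs, and Vars had 0.31, -0.19, 0.78 and 0.71. Both changed sign between replicates of 1 line, and neither passed the test there (adjusted p = 0.944 and 0.538 in edgeR). Mars, with 53.7% GC, stayed between 0.31 and 1.02 in all 10 pairs, and Eprs, with 46.9% GC, between 0.34 and 2.09.

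**Figure D5:**
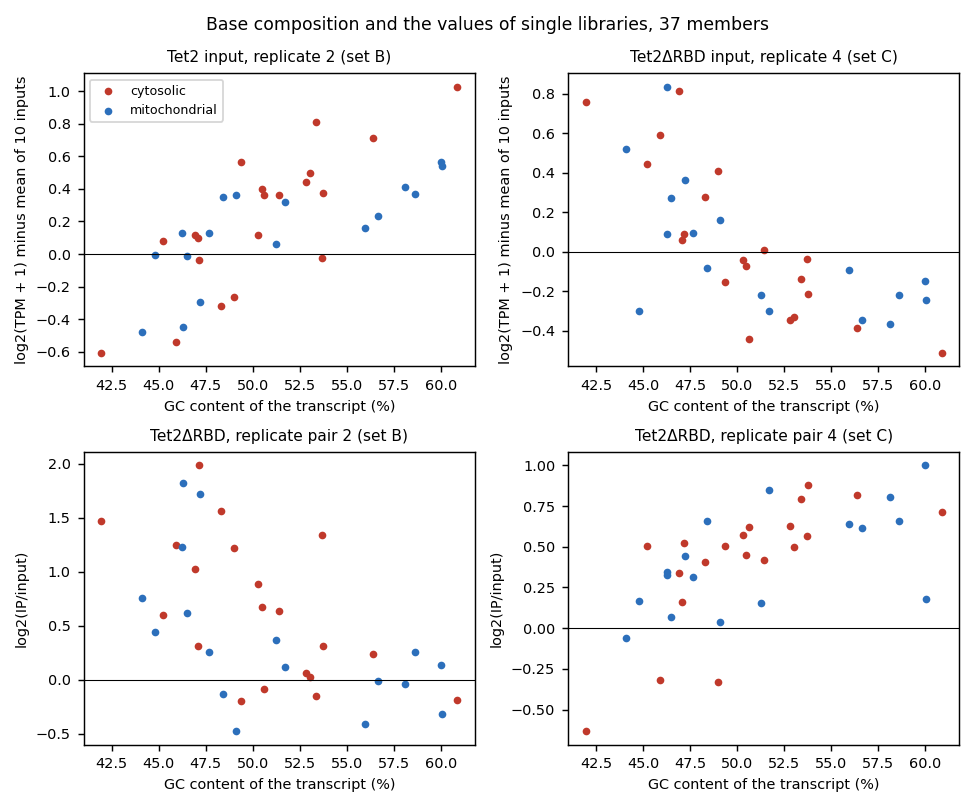
GC content of the longest coding transcript of each member against its input level relative to the mean of the 10 inputs (upper panels) and against log2(IP/input) (lower panels), in single libraries or pairs; red, cytosolic; blue, mitochondrial. The relation runs up in the Tet2 input of set B (r = 0.73) and down in the Tet2ΔRBD input of set C (r = -0.72), and the IP ratios of Tet2ΔRBD replicates 2 and 4 run opposite ways (r = -0.58 and 0.64).

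Several members share exon sequence with a neighbour on the opposite strand, and the sources used here do not state whether strand was used in counting. Hars and Hars2 lie head to head and share 195 exon bases, 9.81% of Hars and 4.56% of Hars2. Iars2 shares 22.7% of its exon bases with Rab3gap2, Farsb 10.8% with Sgpp2 and Mars 1.99% with Ddit3, a target of Atf4. Without strand, reads from these bases cannot be told apart.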

How the data were processed

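RIP and input RNA of 3 knock-in ESC lines was sequenced (20 libraries, polyA RNA per the labels). By the study's methods, the authors removed low-complexity reads (AfterQC) and rRNA and tRNA reads (Bowtie2), trimmed with Trimmomatic, mapped to mm9 with RSEM and RefSeq transcripts, and deposited expected counts per gene, FPKM, and TPM with a pseudocount of 1, which was subtracted here. Software versions are not given in the sources used here. Groups and replicate numbers came from the labels. The members and gene lists were chosen with earlier results of these data known.

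Rounded expected counts were tested with edgeR 4.0.16 (R 4.3.3; TMM, quasi-likelihood F test, Benjamini-Hochberg, threshold 0.05). The IP fit used all 20 libraries with a block for each pair and an IP effect per line (13710 genes with 1 CPM in at least 2 libraries, 7 residual degrees of freedom). The input fit used the 10 inputs with line and library set (13317 genes, 5 residual degrees of freedom). Same-numbered IP and input deviated together (r = 0.61 to 0.90 in the Tet2 and Tet2ΔRBD lines, 0.24 in Tet1), so the numbers were taken to pair them. Within set C, replicates 3 and 4 could not be told apart in this way, since IP 4 correlated better with input 3 (0.81 and 0.73) than with its own (0.78 and 0.61). Replicates 3 and 4 differed by more than sampling noise, with a chi-square per gene of 2.79 to 3.62, or 17.1 for the Tet2ΔRBD inputs. Any other 2 replicates of the Tet2 or Tet2ΔRBD line gave 140 to 558, and the 2 Tet1 replicates 7.91 (IP) and 8.04 (input). Replicates 3 and 4 were thus much closer to each other than to replicates 1 and 2, yet each was counted as 1 of 4 replicates.

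SE is the ratio over the square root of F. Alternatives were DESeq2 1.42.0, limma 3.58.1, other pseudocounts, filters, blocks and target rules, and leaving out replicates. Named members were the 3 highest and 3 lowest fitted ratios per line, members called between lines (at most 5 each), the highest and lowest input levels, enzyme pairs of 1 amino acid, and up to 2 genes per list and line. Others (scaffolds, markers, Ddit3, GC extremes) were chosen after their values were seen. The fits were tested on simulated data. Gene coordinates and transcript GC came from GENCODE vM1 (mm9). Supplementary lists were not used. Values of 1 member and 1 promoter stretch are not reported here.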

Additional observations from a re-analysis of the deposited data

Results flagged for a closer look

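Within the groups of 4 replicates, 150 sets of values were checked for 1 sample far from the others, and 14 met the criterion, where chance would give about 7.5. Of these, 10 were input levels. In replicate 2, the set B library, Farsa, Hars, Wars and Ears2 stood high in the Tet2 inputs, at 141, 100.5, 125 and 22.9 TPM against 64.4 to 64.8, 60.4 to 63.5, 48.1 to 55.4 and 14.6 to 15.9 TPM in the others. Farsa, Wars and Aars2 stood high in replicate 2 of the Tet2ΔRBD inputs, at 163, 143 and 39.1 TPM against 77.0 to 85.8, 61.6 to 66.0 and 21.9 to 24.3 TPM. Farsa and Wars were thus far from the other inputs in the same library set of both lines.

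In replicate 1, Iars and Tars stood high in the Tet2 inputs, at 86.7 and 69.6 TPM against 40.0 to 41.2 and 41.2 to 44.8 TPM, and Nars2 in the Tet2ΔRBD inputs, at 10.3 TPM against 4.72 to 5.06 TPM. Among the log2(IP/input) values, Sars stood high in Tet2 replicate 2 (0.81 against 0.19 to 0.24) and Mars2 low in Tet2 replicate 1 (-0.37 against -0.16 to -0.13). Iars2 and Lars stood high in Tet2ΔRBD replicate 2, at 1.72 and 1.99 against 0.44 to 0.62 and 0.52 to 0.77. No member moved one way in every pair of 1 line and the opposite way in every pair of another.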

How the results depend on the processing

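Of 192 values of the comparisons recomputed under alternatives, 124 stayed near the reported value and 68 moved. Members called higher in the Tet1 IP (0 as reported) numbered 2 with DESeq2 and 2 with limma at either pseudocount. Fitting the own line only gave 20 higher and 1 lower, with 7013 of the 13710 tested genes called in either direction. For the Tet2 IP (8 higher, 1 lower), limma at either pseudocount gave 24 and 0. Of the 13710 tested genes, limma called 4801 higher at a pseudocount of 1 and 4815 at 0.1. Dropping the replicate block gave 0 and 0 members, and merging replicates 3 and 4 gave 4 higher. Leaving out single libraries gave 4 to 15 higher and 0 to 1 lower. For the Tet2ΔRBD IP (2 and 1), DESeq2 gave 10 and 0 and limma 21 and 0. Of all tested genes, DESeq2 called 1760 higher and 1520 lower, and limma on log2(TPM + 1) called 3224 and 629. Dropping the replicate block, fitting the own line only, or merging replicates 3 and 4 gave 0 and 0 members. Without the filter on low counts 0 were lower, and leaving out single libraries gave 0 to 3 higher and 0 to 1 lower. The Tet2 minus Tet2ΔRBD difference was called for 0 members in all 12 alternatives.

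Higher in Tet2ΔRBD than in Tet2 inputs (1) were 2 with DESeq2, 16 in set C alone and 3 with limma. Without the filter, with the replicate block or without the library set there were 0, and leaving out single libraries gave 0 to 5. Set C alone called 2712 of the 13317 tested genes here in either direction, and 6508 between Tet1 and Tet2 inputs. For Tet1 against Tet2 inputs (17 and 1), set C alone gave 2 lower, leaving out the library set gave 0 and 0, and leaving out single libraries gave 7 to 20 higher and 0 to 3 lower. Without the library set the differences of Qars (-0.0608), Vars (-0.151) and the mitochondrial median (-0.00817) changed sign. That median and its cytosolic counterpart were recomputed by a choice made after seeing the data.

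Requiring 1.5 times the input left 6, 6 and 0 members above input in every Tet1, Tet2 and Tet2ΔRBD replicate. In the Tet2ΔRBD line, centring on expressed genes left 14 and comparing means without the replicate block gave 36. The cytosolic minus mitochondrial gap in Tet1 was 0.18 with means in place of medians, and the Tet1 input ratio was 5.53 without Gars and Kars and 6.25 with geometric means. Except where a setting's construction shows it, the cause was not tested. Counting error was small beside the spread between library sets, and with 2 Tet1 pairs the Tet1 calls have the least support.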
